A study of Mus musculus with 2 samples.

Results

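Iron uptake, storage and haem turnover were followed through 10 genes in 4T1, a cell line from a mouse mammary carcinoma. The genes were Tfrc, Steap3, Slc11a2, Fth1, Ftl1, Ncoa4, Slc40a1, Hmox1, Ireb2 and Aco1, taken by name, and all 10 were found among the 51912 rows with Ensembl gene identifiers. In the co-culture group, 4T1 cells lay in the lower chamber and M2 macrophages in the upper one of a transwell device for 3 days. The control group was 4T1 cells without macrophages, and no source used here says whether they were grown with an empty insert. Each group had 1 library, and the values are TPM, a length-normalised transcript abundance that is scaled to the same total in each library. The origin of the macrophages and the way they were polarised are not stated in these sources. The co-culture library is titled 4T2, although its treatment label reads 4T1. The comparison asks how gene expression of the tumour cells differs when macrophages share their medium.

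Animal cells take up iron mainly as transferrin-bound iron through the transferrin receptor, reduce it in the endosome and carry it into the cytosol. Iron that is not used at once is stored inside ferritin shells, from which it is released by autophagy, or leaves the cell through ferroportin. Iron regulatory proteins bind hairpins called iron-responsive elements. Binding in a 5′ untranslated region (UTR) blocks translation, and binding in a 3′ UTR protects the mRNA from decay, so that a shortage of iron lowers ferritin synthesis and raises the receptor mRNA. Tumour cells that divide need iron for DNA synthesis and respiration, and macrophages are the body's main recyclers of haem iron.

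The iron-responsive elements of these genes are shown because they mark which mRNAs are known to be regulated through stability and which through translation. Transcript sequences of GENCODE M21 (build GRCm38) were searched on the sense strand for C, any 5 bases, the loop CAGTGN and 5 further bases, where the bases on both sides of the loop had to pair with each other, G-T pairs included. Of 55450 annotated genes 448 held such a match (0.808%), and so did 4 of the 10 iron and haem genes. Of the 11246 annotated genes with a mean of at least 1 TPM in these libraries, 245 held one (2.18%). A match describes the letters only and does not show that a protein binds there. Capitals mark the bulged C and the loop, and T stands for U of the mRNA. The Fth1 element lies in exon 1, in the 5′ UTR, at chr19:9982732-9982760 on the plus strand. That of Ftl1 lies in exon 1, in the 5′ UTR, at chr7:45459779-45459807 on the minus strand. That of Slc40a1 lies in exon 1, in the 5′ UTR, at chr1:45925465-45925493 on the minus strand.
Fth1: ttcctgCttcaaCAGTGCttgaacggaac
Ftl1: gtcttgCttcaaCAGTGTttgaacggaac
Slc40a1: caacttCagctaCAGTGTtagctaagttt
The ferritin elements shared 26 of 29 bases with each other, and the Fth1 element shared 13 of 29 with that of Slc40a1. These counts include the bulged C and the bases CAGTG, which the search required in every site.

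Tfrc held 4 matches, all in exon 19 in the 3′ UTR on the plus strand of chromosome 16, within 520 bases. In order along the mRNA they lie at chr16:32631219-32631247, chr16:32631598-32631626, chr16:32631663-32631691 and chr16:32631710-32631738.
Tfrc, position 32631219: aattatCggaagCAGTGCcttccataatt
Tfrc, position 32631598: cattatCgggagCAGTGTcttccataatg
Tfrc, position 32631663: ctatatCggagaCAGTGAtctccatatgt
Tfrc, position 32631710: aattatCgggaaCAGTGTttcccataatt
Pairs of these elements shared 18 to 25 of 29 bases, again including the bases that the search required. A looser search that allowed 1 unpaired position, added after the stricter one, matched 6.53% of all genes and found a site in Slc11a2, in exon 16 in the 3′ UTR at chr15:100395153-100395181 on the minus strand.
Slc11a2: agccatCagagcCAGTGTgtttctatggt
It was present in 1 of 8 annotated Slc11a2 transcripts. The other sites were also found in only part of the annotated transcripts: 5 of 9 for Fth1, 2 of 6 for Ftl1 and 3 of 8 for Slc40a1. Each Tfrc site was found in 2 of 7. The deposited values are per gene, so transcripts with and without a site cannot be told apart.

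Among the 10 genes, Hmox1 was lower in co-culture and Tfrc and Ireb2 were higher, each by at least 2-fold, while the 6 other detected genes lay within 2-fold. Ratios are log2((co-culture TPM + 1)/(control TPM + 1)), and genes with a mean of at least 1 TPM were called detected. Of the 9 detected genes 1 was at least 2-fold lower, against 2.14% of all 11258 detected genes, and 2 were at least 2-fold higher, against 4.95% of them. Both higher genes lay close to the 2-fold line, and neither passed it once the co-culture values were scaled down so that genes of at least 10 TPM had a median ratio of 1, which lowers every log2 ratio by up to 0.12. With this median ratio scaling 3.61% of all detected genes were at least 2-fold higher. The median ratio of the 9 genes was 0.06, beside 0.17 over all detected genes, and was -0.052 with that scaling. With 1 library per group there is no replicate error and no test, so every difference describes this pair of libraries only. TPM keeps no sequencing depth, and the depth is unknown here. In bulk RNA, fewer cells that express a gene and less of its RNA per cell cannot be told apart.

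**Figure D1:**
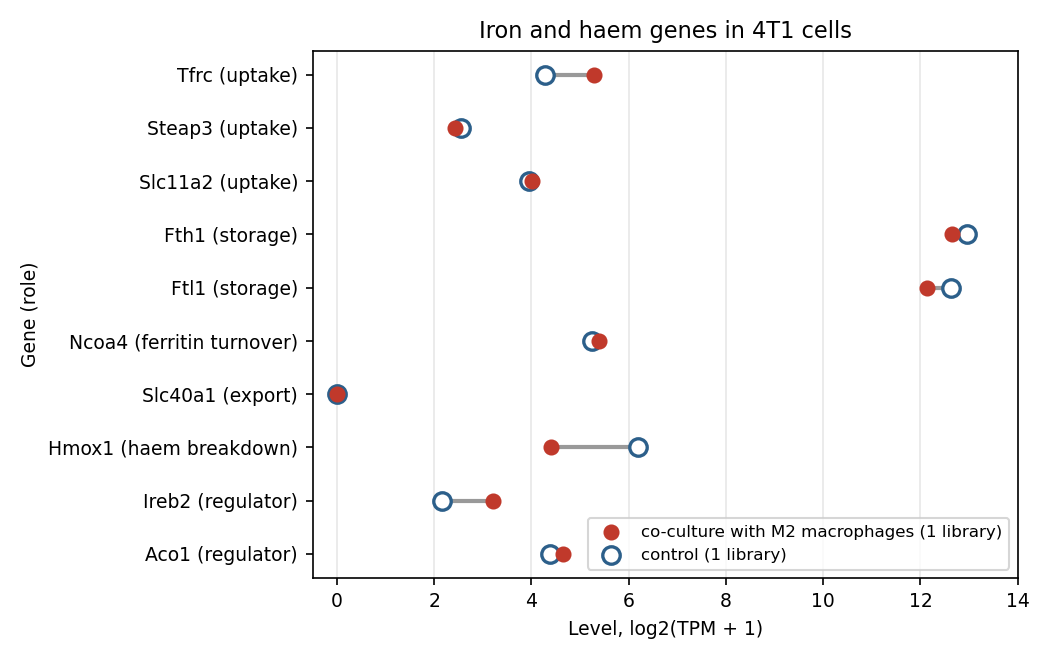
Level of each of the 10 genes on a log2(TPM + 1) axis, with filled points for the co-culture library and open points for the control library. The widest gap is that of Hmox1 (20.2 TPM in co-culture and 72.3 TPM in the control), and Fth1 and Ftl1 lie far to the right of the other genes.

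Both libraries carried keratins and almost no macrophage transcripts. None of 12 macrophage markers was detected, their summed level was 0.72 TPM in co-culture and 0.54 TPM in the control, and Adgre1, Tyrobp, Fcer1g, Cd163 and Vsig4 were listed at 0 in both. Lyz2 and Aif1 had 0.04 and 0.27 TPM in co-culture and were listed at 0 in the control. Spi1 and Laptm5 were listed at 0 in co-culture and had 0.16 and 0.04 TPM in the control. Csf1r, Mrc1 and Mertk had 0.01, 0.08 and 0.32 TPM in co-culture, against 0.03, 0.05 and 0.26 TPM in the control. Of 8 epithelial markers 5 were detected. Krt8 had 630 TPM in co-culture and 548 TPM in the control, and Krt18 had 484 TPM in co-culture and 439 TPM in the control. Krt7, Cldn3 and Krt19 had lower levels than these, with 18.3, 14.1 and 2.64 TPM in co-culture and 15.9, 8.14 and 0.18 TPM in the control. Epcam and Cldn7 were listed at 0 in both libraries and Cdh1 had 0.01 TPM in co-culture and 0.04 TPM in the control, so these epithelial adhesion markers were at or near 0.

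Tfrc encodes transferrin receptor 1, which carries transferrin-bound iron into the cell. The gene (ENSMUSG00000022797) lies on chromosome 16 of GRCm38 from 32608920 to 32632794 on the plus strand. Tfrc had 38.0 TPM in co-culture and 18.45 TPM in the control, 2.06 times as much in co-culture. The log2 ratio of 1.003 sat on the 2-fold line itself. Of all detected genes, 552 (4.90%) had a ratio at least as high. With the median ratio scaling the ratio was 0.89, and with each of the other scalings it was likewise below 1.

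Steap3 and Slc11a2, which act after the receptor in the endosome, differed little. Steap3, the ferrireductase of the endosome on chromosome 1 from 120190757 to 120272705, had 4.39 TPM in co-culture and 4.90 TPM in the control (log2 ratio -0.13). Slc11a2, which encodes the divalent metal transporter DMT1 on chromosome 15 from 100387898 to 100425072, had 15.15 TPM in co-culture and 14.5 TPM in the control. Its ratio was 0.06, and -0.052 with the median ratio scaling, so its direction depended on the scaling. Of the 3 uptake genes Tfrc had the widest difference under each alternative run. The gene Gm5475 overlaps the span of Slc11a2 on the opposite strand, with 0.02 TPM in co-culture and 0.06 TPM in the control.

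The ferritin subunit genes were by far the most abundant of the 10 and had lower values in co-culture. Fth1 encodes the heavy chain, whose ferroxidase centre oxidises incoming iron, and lies on chromosome 19 from 9980598 to 9985098. Fth1 had 6438 TPM in co-culture and 7947 TPM in the control, a log2 ratio of -0.30. It ranked 11th of all Ensembl genes in co-culture and 8th in the control. Ftl1, the light chain gene that aids mineralisation of the iron core, lies on chromosome 7 from 45457944 to 45459884 on the minus strand. Ftl1 had 4465 TPM in co-culture and 6327 TPM in the control, a log2 ratio of -0.50, and ranked 25th in co-culture and 15th in the control. Both differences were within 2-fold. Gm10252 overlaps Ftl1 on the opposite strand, with 2.01 TPM in co-culture and 1.74 TPM in the control. Together the subunit genes took 1.09% of all TPM in co-culture and 1.43% in the control, while the other 8 genes summed to 151 TPM in co-culture and 170 TPM in the control.

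Most genes of similar abundance also had lower values in co-culture. Of the 166 genes with a mean of at least 1000 TPM, 118 had lower values, and their median log2 ratio was -0.19, with 25th and 75th percentiles of -0.30 and 0.07. A ratio at least as low as that of Fth1 was seen for 41 of them, Fth1 included, whereas 7 had one at least as low as that of Ftl1, Ftl1 included.

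Annotated relatives of the ferritin genes had low values or none. Of 14 annotated relatives and pseudogenes 12 were listed at 0 in both libraries. Ftl1-ps1, a retrogene on chromosome 13 from 74399694 to 74407346, had 7.60 TPM in co-culture and 15.7 TPM in the control (log2 ratio -0.96). Its longer transcript was identical to that of Ftl1 at 906 of 910 aligned bases (99.6%). How reads common to both were assigned was not tested, and the value of Ftl1-ps1 is uncertain. Fthl17f had 0.08 TPM in co-culture and was listed at 0 in the control.

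Ncoa4 encodes the autophagy receptor that delivers ferritin to the lysosome and so frees its iron. It lies on chromosome 14 from 32159865 to 32179855. Ncoa4 had 41.2 TPM in co-culture and 36.8 TPM in the control, a log2 ratio of 0.16 that was close to the median of all detected genes and became -0.03 with a trimmed mean (TMM) scaling factor. Among the 10 genes its level was number 3 in co-culture and number 4 in the control.

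Slc40a1 encodes ferroportin, the known cellular iron exporter, and lies on chromosome 1 from 45908068 to 45926523 on the minus strand. It was listed at 0 in both libraries. A listed 0 in a table without counts can also be a failed estimate. Among all Ensembl genes 16 were listed at 0 in co-culture with at least 10 TPM in the control, and 18 were listed at 0 in the control with at least 10 TPM in co-culture. No ratio is given for Slc40a1.

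Hmox1 encodes haem oxygenase 1, the inducible enzyme that opens the haem ring and releases iron, carbon monoxide and biliverdin. The gene (ENSMUSG00000005413) lies on chromosome 8 from 75093621 to 75100589 on the plus strand. Hmox1 had 20.2 TPM in co-culture and 72.3 TPM in the control, 3.58 times as much in the control. The log2 ratio was -1.79, and 83 of the detected genes (0.737%) had a ratio at least as low. It was the only one of the 10 genes that stayed at least 2-fold different under every alternative run, with ratios of -1.97 to -1.58. Among the 10 genes Hmox1 was number 6 in level in co-culture and number 3 in the control.

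Ireb2 and Aco1 encode the iron regulatory proteins IRP2 and IRP1, which bind the hairpins shown above. IRP2 is removed by a ubiquitin ligase when iron is plentiful, whereas IRP1 switches to a cytosolic aconitase by taking up an iron-sulphur cluster. Ireb2, on chromosome 9 from 54863789 to 54912530, had 8.28 TPM in co-culture and 3.47 TPM in the control, 2.39 times as much in co-culture. Its log2 ratio was 1.05, a value that 466 detected genes (4.14%) reached or exceeded, and 0.95 with the median ratio scaling. Aco1, on chromosome 4 from 40143081 to 40198338, had 24.2 TPM in co-culture and 19.97 TPM in the control, a log2 ratio of 0.27. Aco1 was the more abundant regulator mRNA in both libraries.

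**Figure D2:**
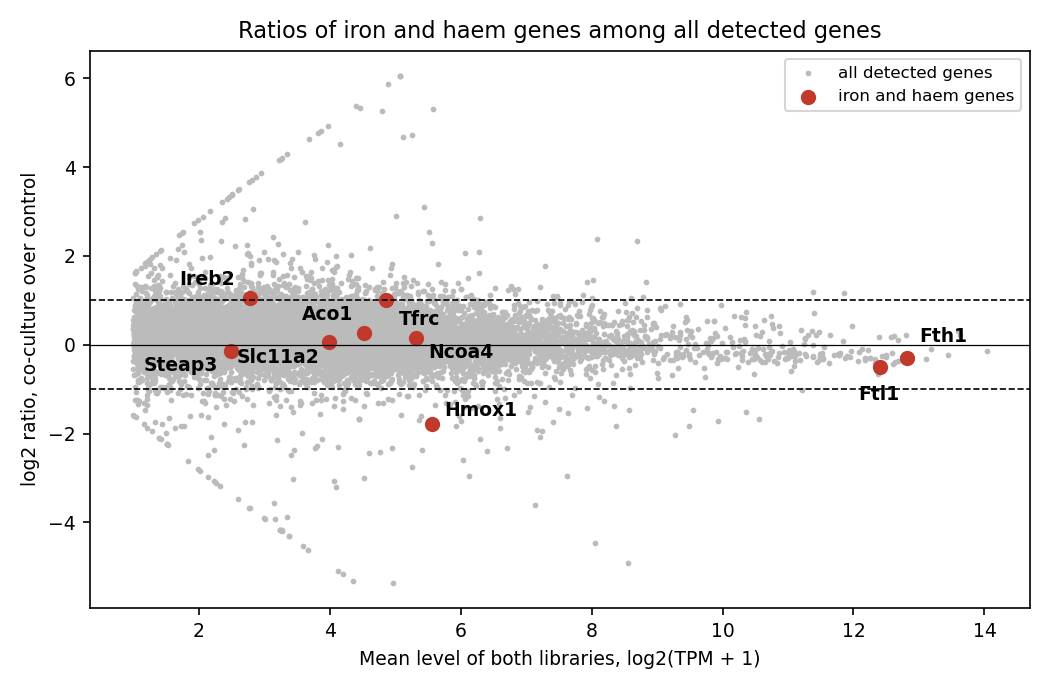
Each grey point is a detected gene, with its mean level on the x axis as log2(TPM + 1) and its log2 ratio (co-culture over control) on the y axis. Dashed lines mark 2-fold differences; Hmox1 lies below the lower line at -1.79, and Tfrc (1.003) and Ireb2 (1.05) lie on or just above the upper one.

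Tfrc and Ireb2 also had the lowest GC content of the 9 detected genes. The longest Ireb2 transcript has 5770 bases with 39.0% GC, and 3.34% of detected genes have a lower GC content. For Tfrc it has 4890 bases with 39.8% GC, and 4.98% of detected genes have less. The longest Ftl1 transcript, in contrast, has 968 bases with 58.1% GC. After trends of the ratio on transcript length and GC content over all detected genes were removed, the log2 ratio was 0.79 for Ireb2, 0.81 for Tfrc, -1.58 for Hmox1, -0.30 for Ftl1 and -0.15 for Fth1. This correction was chosen after the data were seen. These 5 ratios moved toward 0. Of the other 4, Ncoa4 moved to 0.015, Slc11a2 turned to -0.0022, Steap3 moved away from 0 to -0.23 and Aco1 was 0.27 as before.

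Ratios between genes of the same library do not depend on how the libraries were scaled, and TPM values are per length. They were not corrected for the trends on transcript length and GC content described above, which differ from gene to gene. With those trends removed, the co-culture to control ratios of Tfrc, Ireb2, Fth1 and Hmox1 had moved toward 0. The log2 ratios then were 0.81 for Tfrc beside -0.15 for Fth1, and 0.79 for Ireb2 beside 0.27 for Aco1. Both of these pairs thus differed by less than the uncorrected values that follow. The Tfrc mRNA amounted to 0.00590 of the Fth1 mRNA in co-culture and 0.00232 in the control, a log2 difference of 1.35. Ireb2 amounted to 0.342 of Aco1 in co-culture and 0.174 in the control (log2 difference 0.98). Hmox1 amounted to 0.415 of Hmox2, the gene of the constitutive haem oxygenase, in co-culture and 1.41 in the control (log2 difference -1.77). Hmox1 was thus below Hmox2 in co-culture and above it in the control. The ratio of Fth1 to Ftl1 was 1.44 in co-culture and 1.26 in the control, a log2 difference of 0.20.

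**Figure D3:**
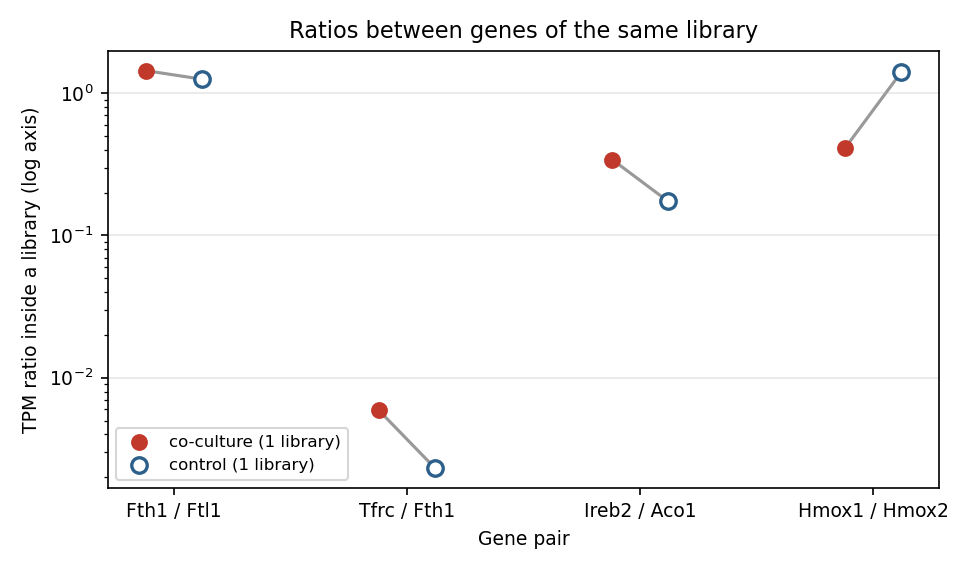
TPM of the first gene divided by TPM of the second, inside each library, on a log axis, with filled points for co-culture and open points for the control. The values are not corrected for trends on transcript length and GC content. Tfrc relative to Fth1 and Ireb2 relative to Aco1 are higher in co-culture, Hmox1 relative to Hmox2 is lower (0.415 in co-culture and 1.41 in the control), and Fth1 relative to Ftl1 differs least.

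Genes of the wider iron and haem pathway were counted in the same way. In 8 further lists with 101 genes, 78 were detected, 1 was at least 2-fold higher and 3 were at least 2-fold lower in co-culture, shares of 1.28% and 3.85% beside 4.95% and 2.14% of all detected genes. The shares of the wider lists rest on 1 and 3 genes only. Higher and lower values were equally frequent in these lists, at 39 genes each, with a median ratio of 0.03. Over all detected genes 64.5% had higher values. With a 1.5-fold threshold 10 of the 78 genes were higher and 8 were lower, beside 18.6% and 6.37% of all detected genes.

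As reported, the 2-fold differences in these lists fell in the list of iron uptake and reduction and in 1 transcription factor gene, Nfe2l1. With the length and GC correction 2 genes of the wider lists were higher and 2 lower, so which genes pass depended on the setting. In the list of iron uptake and reduction 8 of 16 genes were detected, with 1 at least 2-fold higher and 2 at least 2-fold lower. Of all detected genes 4.95% were at least 2-fold higher and 2.14% at least 2-fold lower. Scara5, a scavenger receptor that binds light-chain ferritin in mouse, had 11.8 TPM in co-culture and 3.98 TPM in the control (log2 ratio 1.36). Mcoln1, a lysosomal cation channel that passes iron, had 17.4 TPM in co-culture and 42.3 TPM in the control (-1.23). Steap1, a relative of Steap3, had 76.1 TPM in co-culture and 159 TPM in the control (-1.05). Lcn2, a secreted protein that binds iron-loaded siderophores, was the most abundant of the list with 349 TPM in co-culture and 207 TPM in the control. Transferrin itself (Trf), lactoferrin (Ltf), Meltf and Slc22a17 were listed at 0 in both libraries.

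The list of BACH1, NRF2 and MAF factors holds genes that act on Hmox1 transcription or belong to the same families. Of its 8 genes 7 were detected, and 1 was at least 2-fold lower, beside 2.14% of all detected genes. Nfe2l1, a transcription factor anchored in the endoplasmic reticulum, had 85.3 TPM in co-culture and 192 TPM in the control (log2 ratio -1.16). Bach1, the haem-binding repressor of Hmox1, had 4.26 TPM in co-culture and 2.43 TPM in the control (0.62). Nfe2l2, which encodes the activator NRF2, had 60.3 TPM in co-culture and 55.1 TPM in the control (0.13). Keap1, whose product marks NRF2 for degradation, had 46.0 TPM in co-culture and 33.0 TPM in the control (0.47). The small MAF gene Maff had 51.2 TPM in co-culture and 31.99 TPM in the control (0.66). Nfe2l2 and Keap1 were named for their role and not by the rule for named genes.

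The lists of iron export, storage and sensing, iron-sulphur cluster assembly and haem metabolism had smaller differences. No detected gene in them reached a log2 ratio of 1 or -1 with the pseudocount of 1 and no length and GC correction. With a pseudocount of 0.1 the low-level gene Iba57 was the exception. With the length and GC correction 2 genes of all wider lists were at least 2-fold higher, and their lists are not given here. In the export and systemic control list 5 of 12 genes were detected. Cp (ceruloplasmin, a ferroxidase) had 15.6 TPM in co-culture and 8.36 TPM in the control, and Erfe (erythroferrone) had 26.9 TPM in co-culture and 44.0 TPM in the control. Furin, a proprotein convertase, had 32.2 TPM in co-culture and 20.1 TPM in the control. Hamp, which encodes the iron hormone hepcidin, was listed at 0 in both. In the storage and sensing list 8 of 9 genes were detected, with ratios of -0.23 to 0.50. The largest ratio was that of Skp1a, a subunit of the ubiquitin ligase that removes IRP2. Fbxl5, the iron-sensing subunit of that ligase, had 20.3 TPM in co-culture and 17.3 TPM in the control (0.21), and the iron chaperone gene Pcbp2 had 238 TPM in co-culture and 280 TPM in the control.

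All 27 genes of mitochondrial iron and iron-sulphur cluster assembly were detected, 11 with higher and 16 with lower values. Over all detected genes 64.5% had higher values. Their ratios ran from -0.79 for Fdx1l, a ferredoxin gene, to 0.83 for Cisd3, which encodes a mitochondrial iron-sulphur protein. The mitochondrial chaperone gene Hspa9 was the most abundant, with 207 TPM in co-culture and 290 TPM in the control, and the assembly factor gene Iba57 had 1.61 TPM in co-culture and 0.66 TPM in the control.

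In haem synthesis 11 of 12 genes were detected, with ratios of -0.79 to 0.30. Cpox, a late enzyme of the pathway, had 11.8 TPM in co-culture and 21.1 TPM in the control. Slc25a38, a mitochondrial glycine carrier, had 11.4 TPM in co-culture and 18.4 TPM in the control, and Alad, which acts early, had 102 TPM in co-culture and 141 TPM in the control. Alas1, named for its role as the rate-limiting enzyme outside red blood cells, had 65.1 TPM in co-culture and 53.1 TPM in the control. In haem transport and breakdown 9 of 13 genes were detected, with ratios of -0.37 for the haem transporter gene Slc48a1 to 0.40 for the folate and haem carrier gene Slc46a1. The porphyrin exporter gene Abcg2 had a ratio of 0.32. Hmox2 had 48.7 TPM in co-culture and 51.2 TPM in the control. The biliverdin reductase genes, which act after haem oxygenase and were named for that role, were similar as well, with Blvra at 42.6 TPM in co-culture and 40.4 TPM in the control and Blvrb at 49.5 TPM in co-culture and 57.7 TPM in the control.

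Other mRNAs known to carry an iron-responsive element were described apart. Of the genes named here, the stricter search found a match in Alas2 and none in Cdc42bpa, Cdc14a or Epas1. The looser search found a site in Cdc14a, in 2 of 7 annotated transcripts, and none in Cdc42bpa or Epas1. Cdc42bpa, a kinase gene, had 12.4 TPM in co-culture and 7.81 TPM in the control (log2 ratio 0.61), and Cdc14a, a phosphatase gene, had 4.33 TPM in co-culture and 2.81 TPM in the control (0.48). Epas1, which encodes HIF-2 alpha, was listed at 0 in both libraries. Alas2, the erythroid isoform of the first haem enzyme, had 0.45 TPM in co-culture and was listed at 0 in the control.

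**Figure D4:**
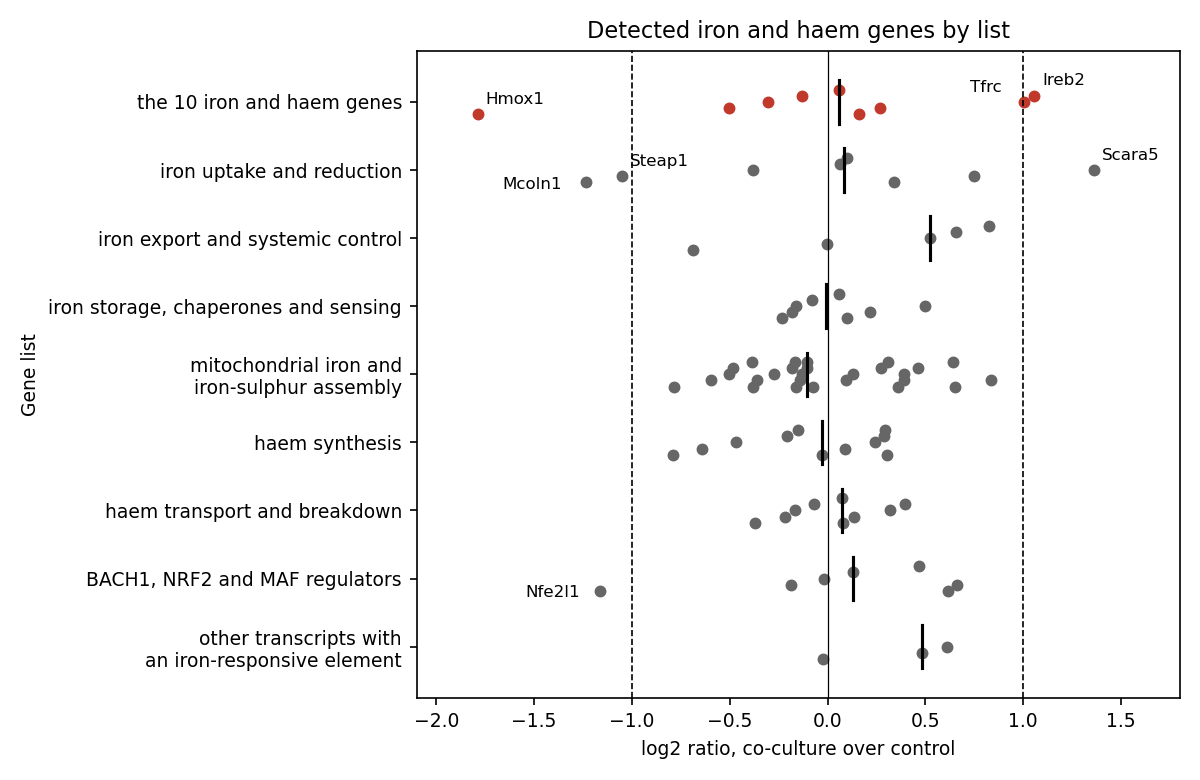
Log2 ratio (co-culture over control) of each detected gene, by list, with the 10 genes in red, a black bar at each list's median and dashed lines at 2-fold differences. Outside the 10 genes Scara5 (1.36), Mcoln1 (-1.23), Steap1 (-1.05) and Nfe2l1 (-1.16) pass a dashed line; points are spread vertically only to separate them.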

How the data were processed

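The authors deposited 1 table of TPM values with 1 column per library, rounded to 2 decimals. Per the submitters' processing notes the tools were RSEM 1.2.31 and HISAT2 2.1.0 and the build was GRCm38.p5, with no roles given. No source used here states the annotation release, the strandedness or any filter. Sequencing depth cannot be read from TPM, so no counting intervals were computed. Of 52796 rows, 51912 had Ensembl identifiers, and the 884 assembled loci were not used. Symbols came from GENCODE M21 for 51633 identifiers, and positions and transcript sequences from the same release (GRCm38). Groups follow the treatment labels.

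Log2 ratios used a pseudocount of 1, which understates the change of low genes. The threshold was 2-fold and detection a mean TPM of at least 1. With 1 library per group no test was made. The 10 genes and all lists were chosen with earlier results of these data known. Of each list the text names the 3 detected genes with the largest absolute ratio and the most abundant one. All markers are named too, and genes picked for their role where stated. Hmox2, Alas2 and some genes listed at 0 in both libraries were named outside this rule. One selected gene is not reported here. Alternative settings were pseudocounts of 0.1 and 5, no minimum and a minimum of 10 TPM, a 1.5-fold threshold, 3 scalings of the libraries, the addition of ferritin relatives and, added later, removal of lowess trends (span 0.3) on length and GC content. Libraries were rescaled by the median ratio of genes with at least 10 TPM, by an unweighted TMM factor trimmed by 30% and 5%, or to equal totals after the 20 most abundant and all mitochondrially encoded genes were left out. Calculations used Python 3.11.15 and pandas 2.3.3 and were checked on simulated data.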

Additional observations from a re-analysis of the deposited data

How the results depend on the processing

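The lower value of Hmox1 stayed at least 2-fold under each of the alternatives run, and the count of 2-fold lower genes among the 10 was 1 in each. The count of 2-fold higher genes, 2 as reported, was 0 with the median ratio scaling, the TMM factor, a pseudocount of 5 and the length and GC correction. It was 1 with a minimum of 10 TPM, which leaves out Ireb2, and 1 after rescaling without mitochondrial and the most abundant genes. The ratio of Tfrc ranged from 0.81 to 1.04 and that of Ireb2 from 0.65 to 1.23, so both kept their direction. The median ratio of the detected genes was -0.12 with the TMM factor, -0.052 with the median ratio scaling and -0.0022 with the length and GC correction, against 0.06 as reported. The ratio of Slc11a2 took the same 3 values, since it is the median gene, and that of Ncoa4 was -0.03 with the TMM factor. Among the wider lists the 2-fold higher count of 1 became 2 with a pseudocount of 0.1 and with the length and GC correction, and 0 with a pseudocount of 5 and with a minimum of 10 TPM. Their 2-fold lower count of 3 became 2 with the length and GC correction and stayed at 3 under the other alternatives with the 2-fold threshold. With a 1.5-fold threshold 10 of these genes were higher and 8 lower, beside 18.6% and 6.37% of all detected genes. Adding ferritin relatives left the Fth1 to Ftl1 ratio at 1.44 in co-culture and 1.25 in the control. No paired analysis was possible because each group has 1 library. The number of libraries and the unknown depth limit every value. The cause of the differences between scalings was not tested.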
